A study of Arabidopsis thaliana with 4 samples.

Results

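The comparison described here set an fnr1 mutant of the Wassilewskija (Ws) accession of Arabidopsis thaliana against wild type Ws, with 1 Affymetrix array for each. Its members were chosen by signal alone. After the control probe sets were dropped and both arrays were scaled to a common median, every probe set with a signal of 30 or more on at least 1 of the 2 Ws arrays was kept, which gave 11595 of 22746 probe sets. The series holds 4 arrays in all, from fnr1 and wild type plants of Ws and of a second accession, Columbia. All 4 groups grew on soil (pH 6.5, 21 °C) in short days, with 8 h of light near 100 µmol quanta per m2 and s followed by 16 h of darkness. The shoots were harvested when 31 days old, 4 h after the light came on, and 3 µg of total RNA was labelled from an oligo(dT) primer. The labels name the mutated gene and not the allele, and do not say how many plants stand behind an array. There was no replicate of any group, so no difference below was tested and each is a difference between 2 arrays.

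FNR1 encodes a leaf ferredoxin-NADP+ oxidoreductase of the chloroplast. The enzyme takes electrons from ferredoxin, which photosystem I reduces, and passes them to NADP+, and the NADPH made is used by the Calvin-Benson cycle and other chloroplast reactions. Electrons can also return from ferredoxin to the electron transport chain, in cyclic flow, by a route that includes the chloroplast NDH complex. No probe set was listed for FNR1, for FNR2 or for any of the ferredoxin genes looked for. The genotype of the array labelled fnr1 Ws could thus not be checked against a probe set listed for the targeted transcript.

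The 2 Ws arrays were close in median brightness, while the deposited mean signal was 129 in fnr1 Ws and 141 in wild type Ws. The deposited median signal was 27.5 on the fnr1 Ws array and 28.9 on the wild type Ws array, and 48.8% and 49.0% of probe sets reached a scaled signal of 30. The ratio of 3' to 5' signal was 2.70 in fnr1 Ws and 2.36 in wild type Ws for the actin control, and 0.897 and 0.759 for the GAPDH control. Leaf transcripts were bright on both. RCA, the activase of Rubisco, had a scaled signal of 7780 in fnr1 Ws and 7569 in wild type Ws, and LHCB4.1, a minor antenna protein of photosystem II, had 6669 and 6733. The root markers EXPA7 and EXPA18 had signals of at most 7.78 in fnr1 Ws and at most 11.2 in wild type Ws, and no probe set was listed for the flower and seed markers. In whole above-ground tissue, fewer cells of a type and less RNA per cell cannot be told apart.

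Of the 11595 members, 10658 had a signal of 30 or more on both Ws arrays, 445 on the fnr1 Ws array alone and 492 on the wild type Ws array alone. A single gene was listed for 6120 members, covering 6071 different genes, several genes for 238 and none for 5237. At the edge of the rule, AT4G16970 was the dimmest member, with 23.3 in fnr1 Ws and just over 30 in wild type Ws, and the probe set 265315_at, with 29.99 and 20.8, was the brightest one left out. Between 30 and 35 there were 665 probe sets, and 741 lay between 25 and 30. Signals under 30 were set to 30 before a log2 ratio of fnr1 Ws over wild type Ws was taken, so a ratio with 1 dim side is a lower bound on the fold. Roles are given for those genes that the gene table names, and for AT5G58330 from the gene list that holds it.

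Most transcripts had nearly the same signal in both plants. The log2 ratio of fnr1 Ws over wild type Ws had a median of -0.04, an interquartile range of 0.34 and an SD of 0.29 over members, and 11068 members (95.5%) lay within 1.5-fold. At least 2-fold higher in fnr1 Ws were 18 members, 0.155% of those measured, and at least 2-fold lower were 13 members, 0.112%. Of these, 8 higher and 8 lower ones had a single gene. At 1.5-fold the counts were 211 higher (1.82%) and 316 lower (2.73%), and at 3-fold they were 3 higher and 1 lower. With the deposited scale kept, 13 members were at least 2-fold higher and 21 lower, so the lower share of these was 61.8% in place of 41.9%. It was 25.9% after quantile normalization, 21.4% after scaling to a common trimmed mean and 27.6% after lowess. The median ratio of all members ran from -0.12 on the deposited scale to 0.01 with the trimmed mean, and the values below are to be read against that shift.

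The spread and the median of the ratios depended on brightness. The median was -0.01 at a mean signal of 30 to 60 and -0.06 to -0.09 in the classes from 120 up. Members with a mean signal of 30 to 60 had an SD of 0.32 in log2 ratio (3677 probe sets) and 6.77% of them were past 1.5-fold. In the brightest class, above 1920, the SD was 0.18 (240 probe sets) and 1.25% were past 1.5-fold. Of the 31 members past 2-fold, 9 of the higher and 6 of the lower ones had a mean signal under 60.

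**Figure D1:**
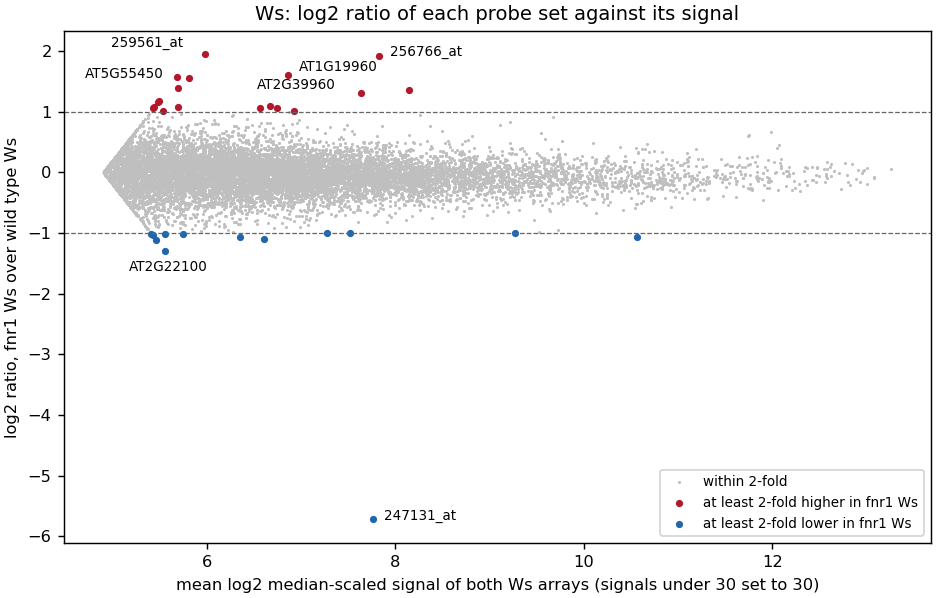
Log2 ratio of fnr1 Ws over wild type Ws (vertical axis) against the mean log2 scaled signal of both Ws arrays (horizontal axis), 1 point for each of 11595 probe sets, with dashed lines at 2-fold. Red points are the 18 probe sets at least 2-fold higher in fnr1 Ws and blue points the 13 at least 2-fold lower, of which 247131_at lies far below the rest at a bound of -5.72.

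The transcripts that stood highest in the mutant were few, and the largest named one was AT1G19960. Its scaled signal was 203 in fnr1 Ws against 66.8 in wild type Ws, a 3.04-fold higher value (log2 ratio 1.61). In Columbia the same probe set had 252 in fnr1 and 63.6 in wild type, so both mutant arrays lay above both wild type arrays. AT5G55450 had 96.7 in fnr1 Ws and 32.8 in wild type Ws (2.95-fold, log2 ratio 1.56), and 185 in fnr1 Columbia and 54.6 in wild type Columbia. Here too the mutant arrays were the 2 highest. AT1G64360 had 66.7 in fnr1 Ws and 24.3 in wild type Ws, at least 2.22-fold higher, with 81.1 in fnr1 Columbia and 39.9 in wild type Columbia.

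AT2G39960 ran in opposite directions in the 2 accessions. Its signal was 315 in fnr1 Ws against 127 in wild type Ws (2.48-fold, log2 ratio 1.31), but 145 in fnr1 Columbia against 315 in wild type Columbia (log2 ratio -1.12). Its high values were thus in the Ws mutant and the Columbia wild type. The next gene on the chromosome, AT2G39950, had 77.3 in fnr1 Ws and 44.3 in wild type Ws (log2 ratio 0.80), and 66.1 and 74.0 in fnr1 and wild type Columbia (log2 ratio -0.16). AT4G33380 had 165 in fnr1 Ws and 93.8 in wild type Ws (log2 ratio 0.82), against 99.4 in fnr1 Columbia and 213 in wild type Columbia (log2 ratio -1.10).

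Other named genes at least 2-fold higher in fnr1 Ws were not apart in Columbia. AT5G44580 had 136 in fnr1 Ws and 65.4 in wild type Ws (2.08-fold), while fnr1 Columbia had 602 and wild type Columbia 663, so the Columbia arrays were far above both Ws arrays. AT1G75190 had 65.7 in fnr1 Ws and 32.6 in wild type Ws (2.01-fold), with 30.7 and 32.4 in fnr1 and wild type Columbia. For AT3G29130 (67.9 in fnr1 Ws, 26.6 in wild type Ws) and AT3G09690 (62.4 and 29.8) the folds are bounds, at least 2.26-fold and at least 2.08-fold.

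Among the bright transcripts of this end was LIL3:2, a light-harvesting-like protein of the thylakoid membrane that is known for its part in chlorophyll and tocopherol synthesis. LIL3:2 had a signal of 1121 in fnr1 Ws against 593 in wild type Ws (1.89-fold, log2 ratio 0.92), with 771 in fnr1 Columbia and 787 in wild type Columbia. The fnr1 Ws array was the highest and the wild type Ws array the lowest of the 4, and the Columbia arrays lay between them. A pair of chromatin genes also stood here. 3xHMG-box2, a high mobility group protein that binds DNA, had 106 in fnr1 Ws and 56.2 in wild type Ws (log2 ratio 0.92), with 73.2 and 77.4 in fnr1 and wild type Columbia. ASF1B, a histone chaperone, had 57.9 in fnr1 Ws and 32.1 in wild type Ws (log2 ratio 0.85), with 45.9 and 35.1 in fnr1 and wild type Columbia. AT4G38550 had 108 in fnr1 Ws and 55.9 in wild type Ws (log2 ratio 0.95), and was further apart in Columbia, at 180 in fnr1 and 56.9 in wild type. The rest of the 15 highest genes measured on both arrays were AT1G76510, AT1G21440, AT2G24830, AT1G05170 and AT5G15320, with log2 ratios of 0.81 to 0.89. The brightest of them, AT1G21440, had 792 in fnr1 Ws and 445 in wild type Ws.

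The genes lowest in fnr1 Ws were closer to 2-fold, and none with a named gene reached 3-fold. AT3G13480 had 56.8 in fnr1 Ws against 118 in wild type Ws (2.09-fold lower, log2 ratio -1.06), with 60.4 and 73.5 in fnr1 and wild type Columbia. AT1G25230 had 130 in fnr1 Ws and 261 in wild type Ws (2.01-fold lower), whereas in Columbia the mutant was the higher one, with 262 against 210. AT4G31310 had 109 in fnr1 Ws and 219 in wild type Ws (2-fold lower), with 157 in fnr1 Columbia and 165 in wild type Columbia. For AT5G50335 the signals were 37.9 in fnr1 Ws and 76.5 in wild type Ws (log2 ratio -1.01), and both Columbia arrays were under 30. Its neighbour on the chromosome, AT5G50340, had 42.1 in fnr1 Ws and 70.8 in wild type Ws (log2 ratio -0.75). These genes have no name in the gene table beyond their locus.

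A pair of bright genes lay just inside 2-fold. AT5G47930 had 793 in fnr1 Ws and 1581 in wild type Ws (1.99-fold lower, log2 ratio -0.99), with 960 in fnr1 Columbia and 1075 in wild type Columbia. AT2G47610 had 610 in fnr1 Ws and 1175 in wild type Ws (1.93-fold lower, log2 ratio -0.95), with 894 and 1209 in fnr1 and wild type Columbia. For both, the fnr1 Ws array was the lowest of the 4.

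Dimmer genes filled most other places at this end. AT2G22100 had 25.3 in fnr1 Ws and 74.0 in wild type Ws, at least 2.47-fold lower. TRZ3, a tRNase Z that trims the 3' end of transfer RNA precursors, had 29.5 in fnr1 Ws and 65.1 in wild type Ws, at least 2.17-fold lower. AT3G01820 had 29.3 and 60.4, at least 2.01-fold lower. PME61, a pectin methylesterase of the cell wall, had 40.5 in fnr1 Ws and 73.8 in wild type Ws (log2 ratio -0.87), with 77.0 and 70.9 in fnr1 and wild type Columbia. AT3G15080 was the one of the 15 lowest lower by 1.5-fold or more in each accession, with 52.9 in fnr1 Ws and 99.3 in wild type Ws, and 51.9 in fnr1 Columbia and 87.6 in wild type Columbia. The others, AT1G42440, AT1G11800, AT1G06510, AT5G55670, AT4G31140 and AT5G17440, had log2 ratios of -0.98 to -0.88.

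AT1G21830 was measured by 2 probe sets that went opposite ways. One had 32.9 in fnr1 Ws and 67.0 in wild type Ws (log2 ratio -1.02), and the other had 77.1 in fnr1 Ws and 56.4 in wild type Ws (log2 ratio 0.45). It was the one gene with 2 or more probe sets and a ratio past 2-fold. Over the 49 genes with several member probe sets, the median gap between the highest and lowest log2 ratio of a gene was 0.25, and 3 genes had a gap of at least 1.5-fold.

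**Figure D2:**
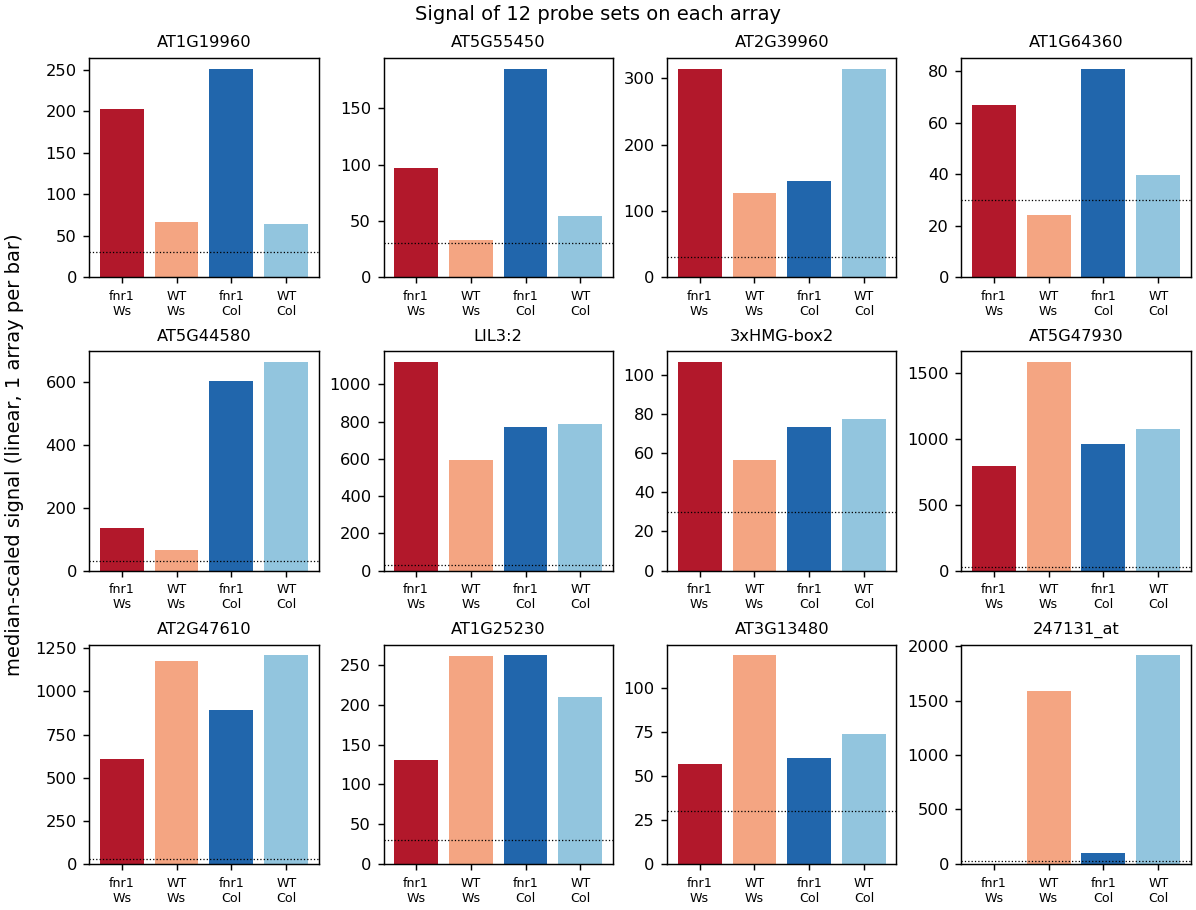
Median-scaled signal (linear vertical axis from 0, its own scale in each panel) of 12 probe sets on each of the 4 arrays, 1 bar per array in the order fnr1 Ws, wild type (WT) Ws, fnr1 Columbia (Col), wild type Columbia, with a dotted line at a signal of 30. AT1G19960, AT5G55450 and AT1G64360 were higher in fnr1 in both accessions, AT2G39960 ran opposite ways, and LIL3:2, AT5G47930 and AT2G47610 were further apart in Ws than in Columbia. The panels show probe sets picked by their ratios in Ws, a choice that favours wider gaps there.

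The 2 highest probe sets and the lowest one had no gene listed. 247131_at had a signal of 2.12 in fnr1 Ws against 1584 in wild type Ws, at least 52.8-fold lower with the dim side set to 30, and 102 in fnr1 Columbia against 1915 in wild type Columbia. It was bright on both wild type arrays, under 30 on the fnr1 Ws array, and well above 30 on the fnr1 Columbia array. At the other end, 259561_at had 123 in fnr1 Ws and 32.1 in wild type Ws (3.84-fold higher), and 256766_at had 442 and 117 (3.78-fold higher). In Columbia, 259561_at had 350 in fnr1 and 96.5 in wild type, and 256766_at had 2672 and 485. 266087_at, the next lowest of those with no gene listed, had 66.5 in fnr1 Ws and 143 in wild type Ws (log2 ratio -1.10). It had 109 and 138 in fnr1 and wild type Columbia.

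The Columbia pair shares no array with the Ws pair, so its values stand beside those of Ws as a second measurement in another accession. Over the 11595 probe sets chosen in Ws, the Columbia pair had 61 at least 2-fold higher in fnr1 (0.526%) and 24 lower (0.207%). Of the 18 that were at least 2-fold higher in fnr1 Ws, 9 were at least 2-fold higher in fnr1 Columbia as well, 1 was at least 1.5-fold lower and 8 lay within 1.5-fold. Of the 13 that were at least 2-fold lower in fnr1 Ws, 1 was at least 2-fold lower in fnr1 Columbia, 247131_at, and 11 lay within 1.5-fold. The counts within 1.5-fold include 1 of the 18 and 2 of the 13 that were under 30 on both Columbia arrays. Their Columbia ratio is 0 because both signals were set to 30, so it does not show equal signal. Among those with a single gene, 3 of the 8 higher ones and 0 of the 8 lower ones were past 1.5-fold the same way in Columbia. Of these lower ones, AT5G50335 was under 30 on both Columbia arrays and could not be compared there. Whether the higher and the lower group differ in their share past 1.5-fold in Columbia was not tested.

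Of the 11595 members, 418 (3.61%) were at least 1.5-fold higher in fnr1 Columbia and 384 (3.31%) lower. At the same fold, with the probe sets that reached 30 in each pair on its own, 45 probe sets were higher in fnr1 in both accessions, 21.3% of the Ws list and 9.68% of the Columbia list. Lower in both were 21, which is 6.65% of the Ws list and 5.26% of the Columbia list. Among members with a single gene, 31 were past 1.5-fold the same way in both accessions, 15 higher and 16 lower, and 17 were past it in opposite directions.

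**Figure D3:**
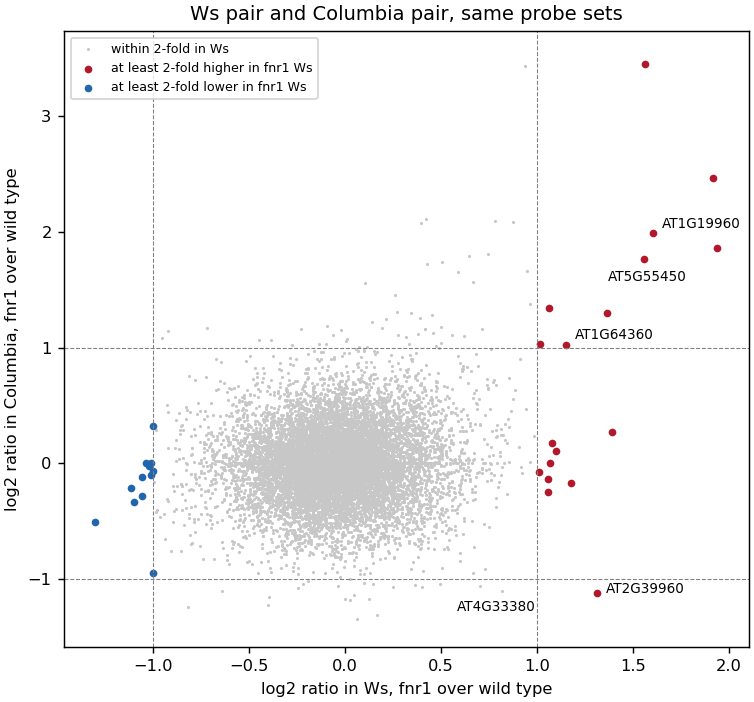
Log2 ratio of fnr1 over wild type in Ws (horizontal axis) and in Columbia (vertical axis) for the probe sets chosen in Ws, 1 point each, with dashed lines at 2-fold. Of the 18 red points (at least 2-fold higher in fnr1 Ws), 9 are at least 2-fold higher in Columbia and AT2G39960 is at -1.12. Of the 13 at least 2-fold lower in fnr1 Ws (blue), 11 are within 1.5-fold in Columbia, counting 2 that were under 30 on both Columbia arrays. 247131_at, at -5.72 and -4.23, lies outside the plot.

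Few nuclear genes for the light reactions and carbon fixation were listed, and their ratios in Ws lay between -0.30 and 0.08. All 3 measured antenna genes were of the LHCB4 family, with log2 ratios of -0.20 to -0.01 and a median of -0.10. LHCB4.3 had 272 in fnr1 Ws and 313 in wild type Ws, and LHCB4.2 had 2999 and 3211. Of the photosystem I subunits, PSAE-1, at the side where ferredoxin docks, had 5851 in fnr1 Ws and 5534 in wild type Ws, and PSAN, at the lumen side, had 4266 and 5247 (log2 ratio -0.30). Of photosystem II, the small subunits PSBW and PSBY had log2 ratios of -0.26 and -0.05. In the Calvin-Benson cycle, PRK, which makes the acceptor of carbon dioxide, had 4476 in fnr1 Ws and 4285 in wild type Ws, and SBPASE, a phosphatase of the regeneration phase, had 3773 and 4203. None of these 10 genes was past 1.5-fold, nor were 95.5% of all members, and above a signal of 1920 only 1.25% of members were, so the count is near the background.

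Genes of cyclic flow and of NADP metabolism were within 1.5-fold, like most members. NdhL and NdhN, nuclear-encoded subunits of the chloroplast NDH complex, had log2 ratios of -0.40 and -0.14, with NdhL at 600 in fnr1 Ws and 791 in wild type Ws. In Columbia NdhL had 720 in fnr1 and 725 in wild type. PGRL1B, of the other route of cyclic flow, had 111 in fnr1 Ws and 103 in wild type Ws. cICDH, a cytosolic NADP-dependent isocitrate dehydrogenase, had 1573 and 1404, and AT5G58330, the chloroplast NADP-dependent malate dehydrogenase, had 1269 and 1225. SIR, the sulfite reductase that takes electrons from ferredoxin, had 683 in fnr1 Ws and 801 in wild type Ws (log2 ratio -0.23).

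Chlorophyll and heme synthesis had 5 measured genes, and 4 of them had ratios below 0, as did 56.8% of all members. The median was -0.27, beside -0.06 to -0.09 for the classes of members with a mean signal of 120 or more. CHLI2, a subunit of magnesium chelatase, had 236 in fnr1 Ws and 326 in wild type Ws (log2 ratio -0.47), with 324 and 396 in fnr1 and wild type Columbia. HEMB1, an early enzyme of the pathway, had 660 in fnr1 Ws and 852 in wild type Ws (log2 ratio -0.37), with 533 and 701 in fnr1 and wild type Columbia. For both genes the mutant was the lower one in each accession. PORB, which reduces protochlorophyllide in the light, had 772 in fnr1 Ws and 931 in wild type Ws (log2 ratio -0.27), but 691 in fnr1 Columbia and 547 in wild type Columbia (log2 ratio 0.34). CHLM, a later methyltransferase, had 1816 in fnr1 Ws and 1754 in wild type Ws, and 1704 in fnr1 Columbia and 2328 in wild type Columbia.

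Among 7 antioxidant genes the highest was CCS, the copper chaperone of superoxide dismutase, with 706 in fnr1 Ws and 503 in wild type Ws (log2 ratio 0.49), above 261 and 226 in fnr1 and wild type Columbia. The lowest was GR, a glutathione reductase, with 883 in fnr1 Ws and 994 in wild type Ws (log2 ratio -0.17). The 7 had a median of -0.11, and none was past 1.5-fold, where 4.55% of all members were.

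Few stress and sugar genes were measured. The 3 measured cold-regulated genes, COR15A, COR47 and COR15B, had log2 ratios of 0.17 to 0.42, where 56.8% of all members were below 0, and none was past 1.5-fold in Ws. COR15A, which protects membranes of the chloroplast in freezing, had 207 in fnr1 Ws and 155 in wild type Ws, and 322 in fnr1 Columbia and 144 in wild type Columbia. COR47 had 455 in fnr1 Ws and 369 in wild type Ws, and 354 in fnr1 Columbia and 356 in wild type Columbia. MCCA, of leucine breakdown, had 114 in fnr1 Ws and 75.6 in wild type Ws (1.51-fold higher), with 86.7 and 99 in fnr1 and wild type Columbia. The plant defensin genes PDF1.2 and PDF1.2b, outputs of jasmonate signalling, had 54.1 and 31.3 in fnr1 Ws against 80.3 and 47.2 in wild type Ws (log2 ratios -0.57 and -0.59), and were under 30 on both Columbia arrays. SWEET13, a sucrose transporter, had 35 in fnr1 Ws and 12.8 in wild type Ws, and WRKY53, a regulator of senescence and defence, had 30.7 and 6.14. With the dim side set to 30, these are bounds of 1.17-fold and 1.02-fold. The salicylate, heat shock and root genes that were listed were all under 30 on both Ws arrays.

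Of the flavonoid genes, DFR, which makes leucoanthocyanidins, had 27.3 in fnr1 Ws and 36.7 in wild type Ws, and UGT78D1, a flavonol glycosyltransferase, had 135 and 168 (log2 ratio -0.31). UGT78D2, another flavonoid glycosyltransferase, lay the other way, with 163 in fnr1 Ws and 136 in wild type Ws (log2 ratio 0.26), and the Columbia ratios of DFR, UGT78D1 and UGT78D2 were all above 0, at 0.19, 0.04 and 0.41. UGT74B1, of glucosinolate synthesis, had 199 in fnr1 Ws and 251 in wild type Ws (log2 ratio -0.33), and in Columbia the mutant was the higher one, with 274 against 218. BCAT4, of the same pathway, had 1359 in fnr1 Ws and 1342 in wild type Ws. DPE1, a starch-degrading enzyme of the chloroplast, had 58.6 and 74.7, and the clock gene GI had 59.1 and 64.3. The cell wall genes XTH16 and EXPA4 had log2 ratios of 0.15 and 0.05. Of the list genes given here, AT5G58330, BCAT4, CHLM, EXPA4, PRK and RCA had ratios above 0 (at most 0.06) that were below 0 on the deposited scale. LHCB4.1 and PSBY, at -0.01 and -0.05, were above 0 with the trimmed mean and with lowess.

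Genes of the plastid genome had ratios close to those of other bright probe sets. As background, plastid transcripts mostly lack long poly(A) tails and are captured only in part by an oligo(dT) primer, and its part in the values was not tested. Of 69 listed plastid genes 66 were members, with a median log2 ratio of -0.10 against -0.04 for all members and -0.06 to -0.09 for the classes of members with a mean signal of 120 or more. Below 0 were 46 of the 66 (69.7%, against 56.8% of all members), and 38 of them after quantile normalization or lowess, where the plastid median was 0.03 below that of all members. The same 66 had a median of 0.01 in Columbia. At least 1.5-fold lower were 2 of the 66 (3.03%), near the 2.73% of all members. These were psbT, a small subunit of photosystem II, with 176 in fnr1 Ws and 282 in wild type Ws, and rpl20, a ribosomal protein gene, with 114 and 183. In Columbia psbT had 180 and 171 in fnr1 and wild type, and rpl20 had 165 and 292, so rpl20 was lower in the mutant in both accessions.

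The plastid genes for the NDH complex lay on the lower side in Ws. All 9 measured ndh genes were below 0 in Ws, with ratios of -0.51 to -0.08 and a median of -0.23. Below 0 were 56.8% of all members, and 69.7% of the 66 plastid members, these 9 included. The 9 genes were read from the same 2 arrays and are not independent observations. The count was 9 of 9 under each of the other scalings too. ndhG had 167 in fnr1 Ws and 238 in wild type Ws, and 170 and 211 in fnr1 and wild type Columbia. ndhK had 274 and 356 in fnr1 and wild type Ws, and ndhI, the one nearest to 0, had 3830 and 4046. In Columbia 4 of the 9 were below 0, where 50.3% of the same probe sets were, and the median was 0.03. None was past 1.5-fold in either accession, and whether the accessions differ in this was not tested. Genes of the plastid RNA polymerase had ratios of -0.47 (rpoC1) to 0.39 (rpoB), and psbA, of the photosystem II core, had 2736 in fnr1 Ws and 2952 in wild type Ws.

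Gene families taken by name had medians of -0.14 (5 glutathione transferases) to 0.20 (10 genes with names in PRA), against -0.04 for all members. The PRA median lay 0.20 to 0.25 above that of all members under each scaling. Of these 10 genes 4 had ratios below 0, and in Columbia their median was -0.07. The 14 serine carboxypeptidase-like genes had a median of 0.08. The 16 measured UDP-glycosyltransferases had a median of -0.07, and 20 ubiquitin-conjugating and ubiquitin-specific protease genes one of -0.08. For the 10 genes with names of CYP and a digit, not all of them cytochromes P450, it was 0.04. The widest single values were those of GSTU16, a glutathione transferase, with 111 in fnr1 Ws and 66.1 in wild type Ws (log2 ratio 0.74) and 120 in fnr1 Columbia and 72.6 in wild type Columbia, and of BGLU16, a beta-glucosidase, with 103 and 170 in fnr1 and wild type Ws (log2 ratio -0.72). For GSTU16 both mutant arrays were above both wild type arrays. EXGT-A3, a xyloglucan endotransglycosylase, had 202 in fnr1 Ws and 323 in wild type Ws (log2 ratio -0.68), and TBL38 and VPS60.1 had log2 ratios of 0.59 and 0.61. These family members were singled out after their values were seen.

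**Figure D4:**
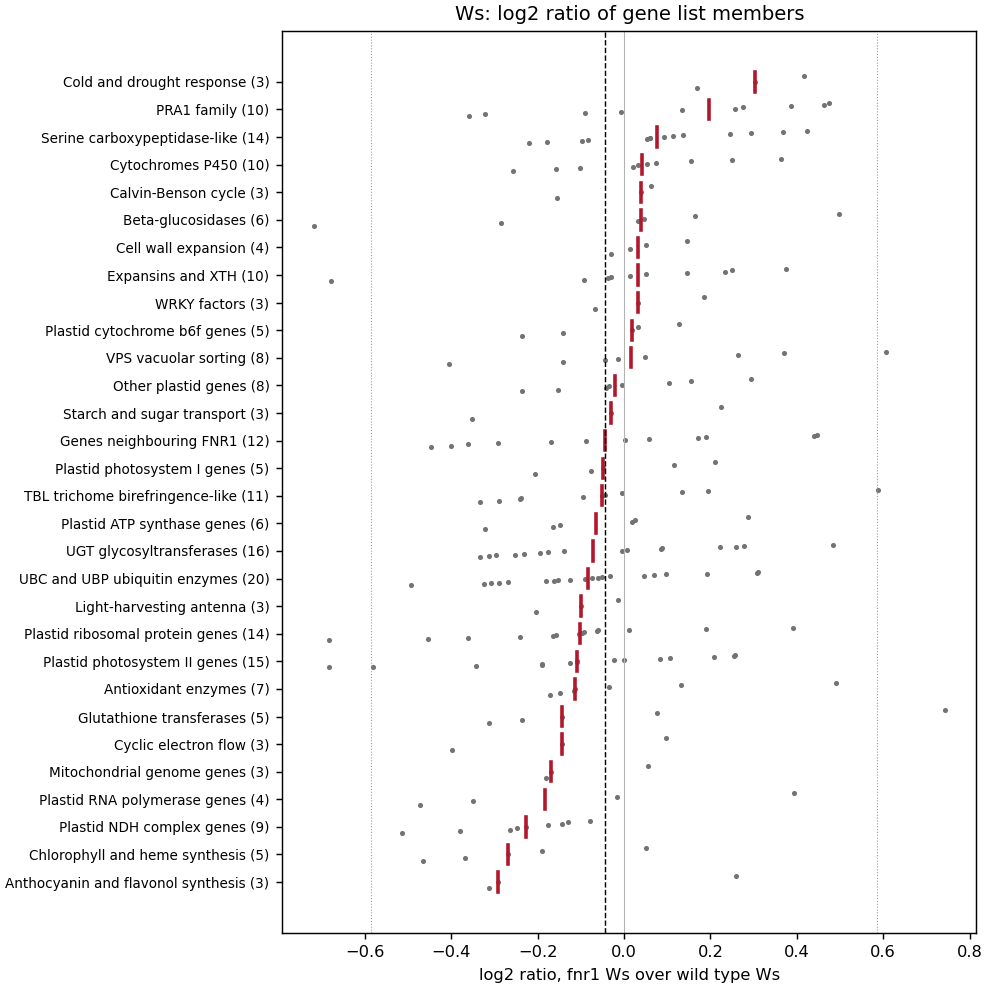
Log2 ratio of fnr1 Ws over wild type Ws (horizontal axis) for the members of gene lists with at least 3 measured members (rows, number measured in brackets), 1 grey point per gene and a red bar at the list's median. The dashed line is the median of all members (-0.04) and dotted lines mark 1.5-fold. List medians run from -0.29 for anthocyanin and flavonol synthesis to 0.30 for cold and drought response, and few points pass a dotted line. Family rows hold genes taken by name, so the cytochrome P450 row holds all names of CYP and a digit.

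Ratios were also compared along the chromosomes. Of the 40 protein-coding genes nearest FNR1, 20 on each side, 19 had a probe set and 12 were members. Their median log2 ratio was -0.04, as for all members. The widest were bounds with 1 dim side, those of STR18, with 20.1 in fnr1 Ws and 40.9 in wild type Ws (at least 1.36-fold lower), and of AT5G66070, with 40.9 and 29.1 (at least 1.36-fold higher). Over the nuclear genome, 1531 pairs of adjacent genes had both measured, and in 2 pairs both genes were at least 1.5-fold apart the same way, the pairs of AT2G39960 and AT5G50335 given above. In 2 further pairs the genes were past 1.5-fold in opposite directions. Of all members 4.55% were past 1.5-fold either way, and whether adjacent genes go together was not tested.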

How the data were processed

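The authors deposited 1 linear intensity value for each probe set on each array, computed with MAS5 (per the submitters' processing notes). No source used here gives its version, scaling target or detection calls. The table holds 22810 probe sets, of which 64 controls were dropped. All arrays were multiplied to a common median of 28.2, signals under 30 were set to 30, and log2 ratios of fnr1 over wild type were taken (Python 3.11.15, numpy 2.4.6, pandas 2.3.3, statsmodels 0.14.6). With 1 array per group there is no test, and the number of arrays limits the precision.

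Of 14016 annotated probe sets, 13513 had 1 gene, 503 had more, and 13436 found their gene ID in the RefSeq table (TAIR10.1). Only probe sets with 1 gene were named. The rule for named genes took the 15 highest and 15 lowest measured on both Ws arrays, up to 8 bounds of at least 2-fold each way, list members past 1.5-fold or else the 2 farthest from 0, genes at least 2-fold apart in Ws and 1.5-fold in Columbia, genes with several probe sets of which 1 was past 2-fold, and the 2 highest and 2 lowest probe sets with no gene listed. A list gene was represented by its brightest probe set. The members, lists and rule were chosen with earlier results of these data known. Alternatives were 4 other scalings, other floors and other signal minimums. The procedure was tested on simulated data.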

Additional observations from a re-analysis of the deposited data

Results flagged for a closer look

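For 2 named genes the Ws and Columbia pairs differed in opposite directions by more than 1.5-fold each. AT2G39960 had a log2 ratio of fnr1 over wild type of 1.31 in Ws and -1.12 in Columbia, a gap of 2.43. AT4G33380 had 0.82 in Ws and -1.10 in Columbia, a gap of 1.92. Each rests on 1 array per group, and neither difference was tested.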

How the results depend on the processing

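The counts of probe sets at least 2-fold apart, 18 higher and 13 lower in fnr1 Ws, depended on how dim signals were treated. With no floor they were 55 and 55, with a floor and minimum of 60 they were 9 and 6, with 30 required on both arrays 8 were lower, and with a pseudocount of 16 in place of the floor 4 were lower. The lower count was 21 on the deposited scale, 7 after quantile normalization, 6 with a common trimmed mean and 8 after lowess. All 18 higher calls were kept under quantile, trimmed mean and lowess scaling, and 13 on the deposited scale. Quantile, trimmed mean and lowess scaling raised the median ratio of all members from -0.04, which favours higher calls. Of the 13 lower calls they kept 7, 6 and 8, while the deposited scale, which lowered that median, kept 13. The pseudocount kept 10 higher and 3 lower calls. The median of the anthocyanin list was 0 with no signal filter, and that of 3 WRKY genes, of which 2 were under 30 in wild type Ws, was 1.06 with no floor and 0.63 with the pseudocount. Of 71 probe sets taken by the rule for named genes, 66 kept their sign in every setting. Many of them were taken for large ratios, so a kept sign says little, and sizes moved for dim genes. The log2 ratio of AT3G09690 ran from 0.06 to 1.09, of AT1G75190 from 0.13 to 1.07 and of AT3G01820 from -1.05 to -0.01. That of AT1G19960 moved less, from 1.41 to 1.66. The other probe set of AT1G21830, and lists limited to signals of 120 or more, were added after the data were seen. No paired analysis was possible because each group has 1 array, and no array could be left out.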
